A study of Mus musculus with 2 samples.

Results

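Ogt and Oga are the gene pair that writes and removes O-linked N-acetylglucosamine (O-GlcNAc), and their surroundings were examined in a map of Oct4 chromatin enriched for that sugar. The members were the sWGA peaks with a summit in either of 2 windows of the mm9 build, 98.78 to 98.93 Mb on chromosome X for Ogt (150 kb) and 45.77 to 45.91 Mb on chromosome 19 for Oga (140 kb). These windows held 4 of 33783 peaks, 1 at Ogt and 3 at Oga. The control list had 4 of its 750 regions in the Ogt window and 0 in the Oga window, where 4.79% of windows of that length on chromosome 19 held at least 1.

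The cells were ZHBTc4 F-Oct4 mouse embryonic stem cells, in which Oct4 carries a Flag tag. ZHBTc4 is a line with both endogenous Oct4 (Pou5f1) alleles disrupted and Oct4 supplied by a tetracycline-repressible transgene, and a single cell line was used in both groups. Cross-linked chromatin, sonicated to 100 to 500 bp, was bound with anti-Flag antibody, eluted with Flag peptide and bound a second time. Both groups are listed with 0.5 M N-acetylglucosamine and 18 PCR cycles. In the sWGA group the second step used beads with sWGA, a lectin that binds N-acetylglucosamine. What the control group had at that step is not settled here, since the labels name it as IgG in one place, as agarose beads in another and as input elsewhere. Each group had 1 library, with 6129874 filtered tags in the sWGA library and 78351 in the control library, so there is no replicate error and no test between the groups. The chromatin was cross-linked, so a peak does not show that Oct4 itself, and not another protein beside it, bound the lectin.

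Ogt is O-GlcNAc transferase, the enzyme that attaches N-acetylglucosamine from UDP-GlcNAc to serine and threonine of nuclear and cytoplasmic proteins. Oga (older name Mgea5) is the O-GlcNAcase that takes the sugar off again. In many cell types the level of each enzyme responds to changes in the overall amount of the modification. Ogt is X-linked and is needed for the viability of mouse embryonic stem cells. By RefSeq gene order (GRCm38.p6), Ogt lies between the coding genes Taf1, a subunit of the general transcription factor TFIID, and Gm52429, with Cxcr3, a chemokine receptor, as the next after it. Oga lies between Npm3, a nucleoplasmin family member, and Kcnip2, a potassium channel interacting protein, with Fgf8, a growth factor of the embryo, beyond Npm3. The peaks are given by mm9 position only, and which exon, intron or promoter each covers was not determined here. The windows also take in ground outside both genes.

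The promoters of both genes are shown so that their sequence can be read beside the sites, from RefSeq GRCm38.p6, 250 bases before to 50 bases after the start. Their numbers are not on the mm9 scale of the peaks. The Ogt promoter lies at chrX:101639801-101640100 on the plus strand and the Oga promoter at chr19:45783504-45783803 on the minus strand. Capitals mark matches, on either strand, to any of the 9 motifs named after the sequences.

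Ogt: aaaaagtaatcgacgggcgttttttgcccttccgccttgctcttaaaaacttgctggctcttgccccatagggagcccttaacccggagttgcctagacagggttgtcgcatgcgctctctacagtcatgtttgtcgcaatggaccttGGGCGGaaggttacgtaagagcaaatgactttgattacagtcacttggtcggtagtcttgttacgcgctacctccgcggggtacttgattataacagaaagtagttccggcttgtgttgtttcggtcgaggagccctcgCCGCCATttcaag

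Oga: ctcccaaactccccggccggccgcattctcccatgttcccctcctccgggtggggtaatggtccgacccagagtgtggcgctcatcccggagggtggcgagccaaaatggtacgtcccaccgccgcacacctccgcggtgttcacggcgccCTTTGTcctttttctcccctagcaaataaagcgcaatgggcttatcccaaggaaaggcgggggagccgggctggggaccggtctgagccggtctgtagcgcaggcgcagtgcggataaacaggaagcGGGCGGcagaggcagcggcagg

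The octamer ATGCAAAT, the sequence that Oct4 is known to bind, was found in neither promoter, nor were its looser form ATGCNAAT, the shorter ATGCAAA, the Sox form CATTGT, the CCAAT box CCAAT or the ETS core CCGGAAG. Among 32851 promoters of the same length, 1.74% held ATGCAAAT, 3.15% held ATGCNAAT and 4.63% held ATGCAAA, so a promoter without them is the usual case. The shares were 12.6% for CATTGT, 37.4% for CCAAT and 8.86% for CCGGAAG. The GC box GGGCGG, held by 35.7% of promoters, matched both: its first base lay 102 bases before the start in Ogt and on base 29 after it in Oga. CCGCCAT, the core bound by YY1, was held by 4.05% of promoters and matched Ogt, from base 38 after the start. ACAAAG, another Sox form, was held by 18.7% and matched Oga on the opposite strand, 99 bases before the start. The 3 octamer forms share letters, and so can the GC box and the YY1 core, so their matches are not independent. RefSeq lists a second Ogt start, at chrX:101639968-101640267, which had 1 GC box, the same CCGCCAT and no octamer. The Oga promoter was rich in G and C at 65.3%, with 26 CpG, against a median of 52.7% and 7 CpG over all promoters. The Ogt promoter had 51.0% G and C and 20 CpG. A match or its absence in these 300 bases is a description and says nothing about binding.

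The Ogt window had a single sWGA peak, with more tags than most peaks of the list. It lay at 98915491 to 98916172 on chromosome X, was 682 bp long and held 41 tags, where evenly spread sWGA tags would give 2.24. Its deposited fold, the tag height at the summit over the caller's expectation, was 37.39. Its deposited score, a p-value written as −log10 and multiplied by 10, was 374.21. Its deposited FDR, which the caller took from the control list, was 76.3%, so that 0 peaks remained in this window at an FDR of at most 5%. The median peak of chromosome X was 411 bp long and held 12 tags at a fold of 15.75. Of the 577 peaks on chromosome X, 23 (3.99%) held at least 41 tags, and over the whole list 3.55% did. By fold the peak was less far up, with 6.46% of all peaks at 37.39 or more. Its tags were spread, since the fold corresponds to 19 tags at the summit, 46.3% of the total. The summit stood 475 bp from the start, so that 69.6% of the length lay before it.

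The Oga window had 1 peak with many tags and 2 with few. The peak with the most tags, at 45858009 to 45858714 on chromosome 19, was 706 bp long and held 32 tags at a fold of 33.46 and a score of 258.88. Its deposited FDR was 36.67%. Of the 883 peaks on chromosome 19, 68 (7.70%) held as many tags or more. Its summit, of 17 tags, lay near 1 end, at 19.3% of the length. The peak before it, at 45811530 to 45811857, held 12 tags over 328 bp at a fold of 8.25 and a score of 55.02, which is close to the caller's limit of 50. The peak after it, at 45888418 to 45888718, held 10 tags over 301 bp at a fold of 19.68 and a score of 79.28. The deposited FDR of these 2 peaks was 2.32% (12 tags) and 4.14% (10 tags). At an FDR of at most 5% these 2 remained and the 32-tag peak did not. The peak with the most tags and the highest score thus also had the highest FDR. The share of all peaks at that limit was not counted, so the numbers left in either window are no result about these genes. Over the members of both windows the FDR rose as fewer sWGA peaks scored as high. Such peaks numbered 979 for the Ogt peak, 2040 for the 32-tag peak, 18130 for the 10-tag peak and 32380 for the 12-tag peak. The control regions named here scored 3100, above every member. They did so at 3 tags as at 6, so that score does not grade them. A low FDR here therefore does not mark a stronger peak. The 12-tag and 10-tag peaks were at or below the median of 12 tags on their chromosome, and in the last all 10 tags met at the summit.

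The peaks with the most tags in each window were close in length and differed in where the summit lay, at 69.6% of the length in the Ogt peak and at 19.3% in the Oga peak. They were 682 bp (Ogt) and 706 bp (Oga) long, where 6.25% and 5.30% of all peaks were at least as long. They held 6.01 tags (Ogt) and 4.53 tags (Oga) per 100 bp, against a median of 2.99 over all peaks. The other Oga peaks held 3.66 and 3.32 tags per 100 bp. Of the 4 members, 2 reached a score of at least 100, 1 at each gene. Over the whole list 33.9% of peaks did, on chromosome X 36.6% and on chromosome 19 33.6%, so with 4 members the share of such peaks is no result about these genes.

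**Figure D1:**
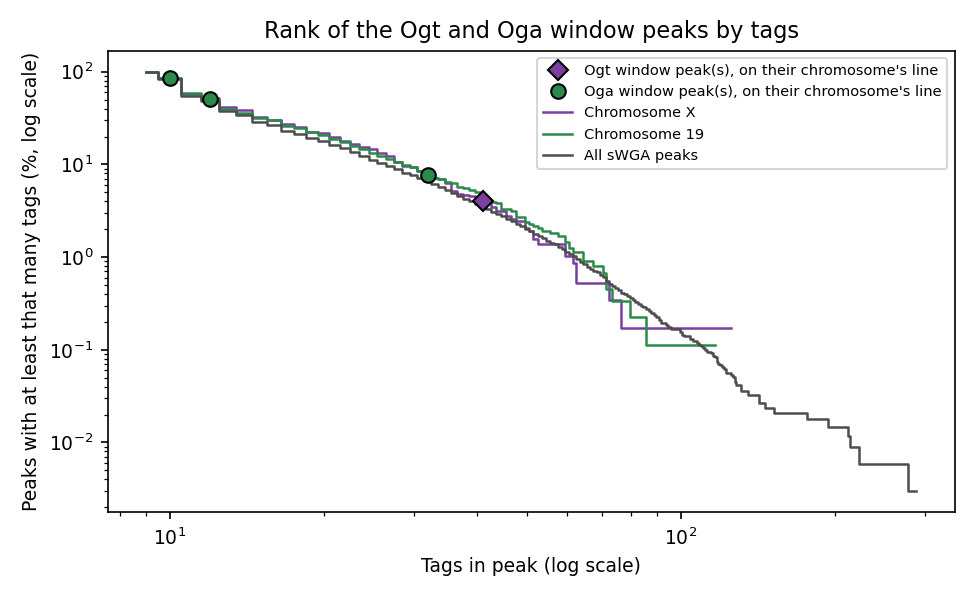
Share of peaks with at least a given number of tags (both axes on log scales) for chromosome X, chromosome 19 and the whole sWGA list, with the Ogt window peak (diamond) and the 3 Oga window peaks (circles) on the line of their own chromosome. The peaks of 41 and 32 tags sit in the upper tail, at 3.99% and 7.70%, and the peaks of 12 and 10 tags in the bulk.

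The peaks differed in the control tags near them. A fold that is a whole number of tags over the genome-wide expectation of 0.508 tags per fragment of 155 bp means that the control had no tag in the 10 kb around the peak. This held for the Ogt peak and for the Oga peaks of 32 and 10 tags. It was the usual case, at 30814 of the 33783 peaks of the whole list. The fold of the 12-tag Oga peak was instead 10 tags over 1.21, the expectation that 1 control tag within 10 kb sets. The control library was small, so that 1 control tag weighed as much as 78.2 sWGA tags. Scored again as if 1 control tag lay within 10 kb, the Ogt peak kept a score of 228.7 and the 32-tag Oga peak 147.7, while the 10-tag Oga peak fell to 43.3, below the limit. With 1 control tag within 1 kb none of the 4 would have been listed, since the highest score, that of the Ogt peak, would be 0.213.

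The Ogt peak stood alone. The nearest sWGA summits outside the window were 103 kb before its edge, in a peak of 10 tags at 98677013 to 98677471, and 271 kb after its other edge, in a peak of 14 tags at 99200630 to 99200941. Measured from the Ogt summit the gaps were 239 and 285 kb, against a median gap of 114 kb between neighbouring summits on chromosome X. Gaps as wide were common on this sparse chromosome: 34.2% were at least 239 kb and 29.7% at least 285 kb. The next peaks beyond were at 98624794 to 98625158 with 12 tags and at 99314440 to 99314830 with 20 tags. None of these 4 neighbours had as many tags as the Ogt peak. Within 1 Mb on either side of the window there were 14 other peaks, 7.0 per Mb where the whole chromosome had 3.47, and 2 of them held at least 41 tags.

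**Figure D2:**
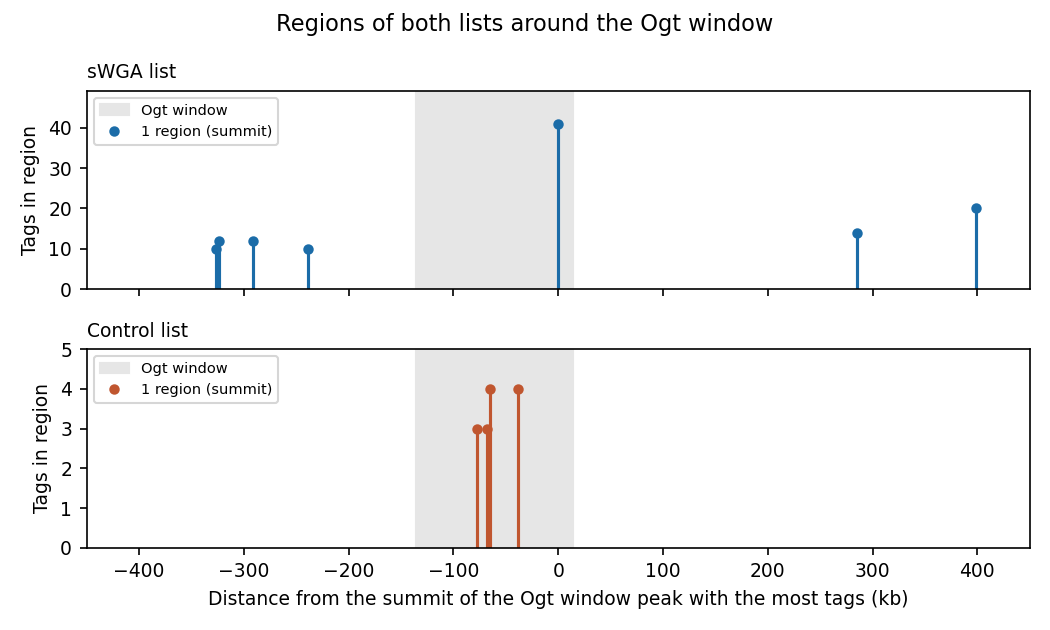
Tags in each region (vertical axis) against the distance of its summit from the Ogt window peak in kb, for the sWGA list (upper panel) and the control list (lower panel), with the window in grey. The sWGA peak of 41 tags is the only one in the window, and the 4 control regions of 3 or 4 tags lie on 1 side of it.

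The Oga window lay in denser ground. Its members were 46.5 and 30.4 kb apart, and the median gap on chromosome 19 was 34.8 kb. The nearest summits outside were 35.0 kb before the window, in a peak of 10 tags at 45734860 to 45735243, and 11.4 kb after it, in a peak of 9 tags at 45921244 to 45921583. The next were a peak of 9 tags at 45732395 to 45732710 and a peak of 16 tags at 45956578 to 45956913. All 4 of these had fewer tags than the 32-tag member. Within 1 Mb on either side of the window there were 58 peaks, 29.0 per Mb against 14.4 for the whole chromosome, and 10 of them held at least 32 tags. The richest held 61 tags.

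**Figure D3:**
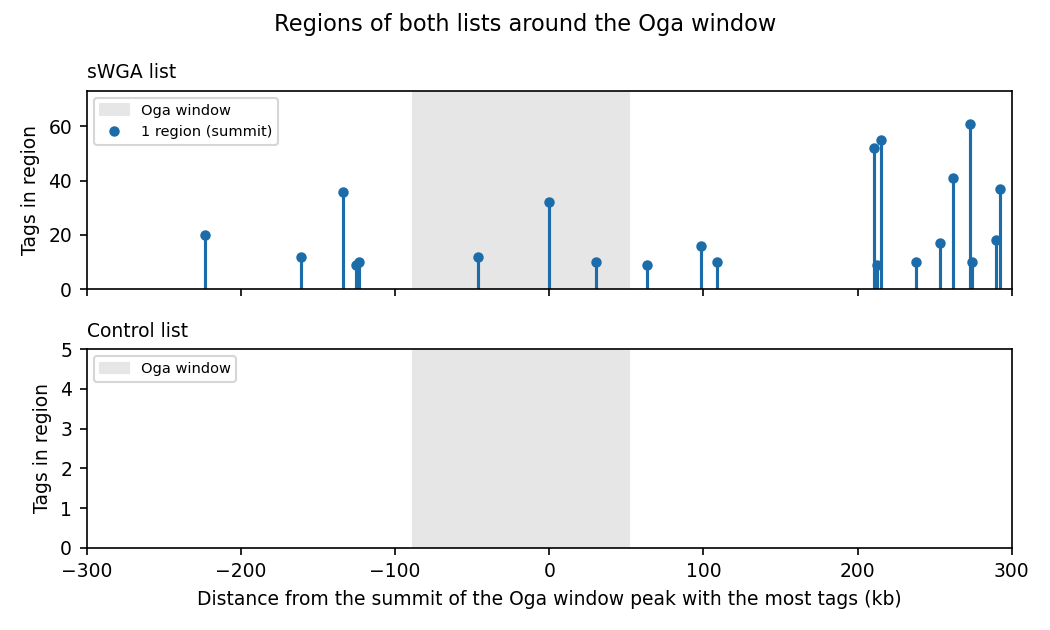
Tags in each region against the distance of its summit in kb from the Oga window peak of 32 tags, for the sWGA list (upper panel) and the control list (lower panel), with the window in grey. The 3 member peaks lie among neighbours of up to 61 tags, and the control panel is empty.

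Read against windows of the same length, neither count of sWGA peaks stood out. Windows of 150 kb were laid end to end in register with the Ogt window, and 353 of 1111 on chromosome X (31.8%) held at least 1 peak, while on autosomes 75.6% did. Windows of 140 kb laid in the same way held at least 3 peaks in 30.8% of cases on chromosome 19 and in 28.5% on all autosomes. A count of 1 peak at Ogt and of 3 peaks at Oga was thus common on their chromosomes.

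The control list was different at Ogt, where 4 regions lay within 39.3 kb. They stood at 98838398 to 98838579, 98848151 to 98848491, 98850881 to 98851120 and 98877420 to 98877694, with 3, 3, 4 and 4 control tags. Their summits were 9.91, 2.61 and 26.6 kb apart. The last ended 37.8 kb before the start of the sWGA peak, so the 2 lists did not meet within the window. How often regions of the 2 lists meet elsewhere was not counted. A meeting was also hard to reach: with 3 control tags within 1 kb, a peak of 419 bp would need 143 sWGA tags. Only 9 of 33783 peaks held that many. That the lists stayed apart here is therefore no result about Ogt. Of 1111 windows of 150 kb on chromosome X, 24 (2.16%) held a control region and 1 (0.0900%), the Ogt window, held at least 4. On autosomes 3.88% held a control region, and 4 of 16495 windows (0.0242%) held at least 4. The 4 regions were 12.9% of the 31 control regions on chromosome X. The next control regions on either side of the window were 8.08 Mb before it, at 90703201 to 90703632, and 4.08 Mb after it, at 103014589 to 103014846.

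These control regions rested on 14 tags in all (exact Poisson 95% interval 7.65 to 23.5, counting error only), where evenly spread control tags would put 0.0435 in the same 1038 bp. They were listed because they were high, so the excess is a description and not a test. Duplicate control tags were limited to 1 per position, per the file headers, so copies at the same position were counted once. For sWGA tags the limit was 2 per position, so the tags of a peak can include copies. A region of 3 tags was the usual case in this list, at 575 of 750 (76.7%). In the caller the 14 tags weighed as much as 1095 sWGA tags, and all 4 regions scored 3100.

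The deposited folds at these regions were 2.42, 2.20, 3.10 and 3.55, against a median of 3.94 over all control regions. In this list a fold sets unscaled control tags against the sWGA tags nearby, so it also tells how many sWGA tags were present. Read in whole tags, the regions starting at 98848151, 98850881 and 98877420 each held 2 sWGA tags (exact Poisson 95% interval 0.242 to 7.22), against 1.12, 0.787 and 0.901 expected from an even spread. The first of these, of 341 bp, is longer than 2 fragment lengths. Its reading took a summit height of 2 of its 3 control tags, and another height would give another count. The region starting at 98838398 had 8 sWGA tags in 1 kb or 80 in 10 kb, which the fold alone does not tell apart, against 3.28 and 32.8 expected. By these readings the local sWGA expectation behind the folds was 1.79 to 2.54 times the genome-wide one. The caller's expectation cannot fall below the genome-wide one, so such values are by themselves no sign of extra sWGA tags. The intervals of the 3 regions with 2 tags include the even spread. That of the region starting at 98838398 does not under either reading, at 3.45 to 15.8 tags in 1 kb or 63.4 to 99.6 tags in 10 kb. A count read from a fold belongs to the window with the highest rate. Its interval is therefore a description and no test against the even spread.

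Clusters of control regions were few and mostly of another kind. When summits no more than 50 kb apart were joined, the 750 regions formed 680 groups, of which 643 were single regions and 7 held at least 4. In the other 6 groups of at least 4, which lay on chromosomes 2, 9, 17, Y (a pair) and mitochondrial DNA, every fold was under 1, so that many sWGA tags were also present. The Ogt group was the 1 group of that size with all folds over 1. Taken one by one, 651 of 750 control regions (86.8%) had a fold over 1, so such folds are the usual case in this list. Among groups of 3, one on chromosome 2 at 115456599 to 115484791 also had all folds over 1, from 1.48 to 5.90, with 9 tags. Joined over up to 20 kb the Ogt group kept 3 regions, and 0 groups of at least 4 had all folds over 1. Joined over up to 100 kb it kept 4, and 2 such groups were found.

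**Figure D4:**
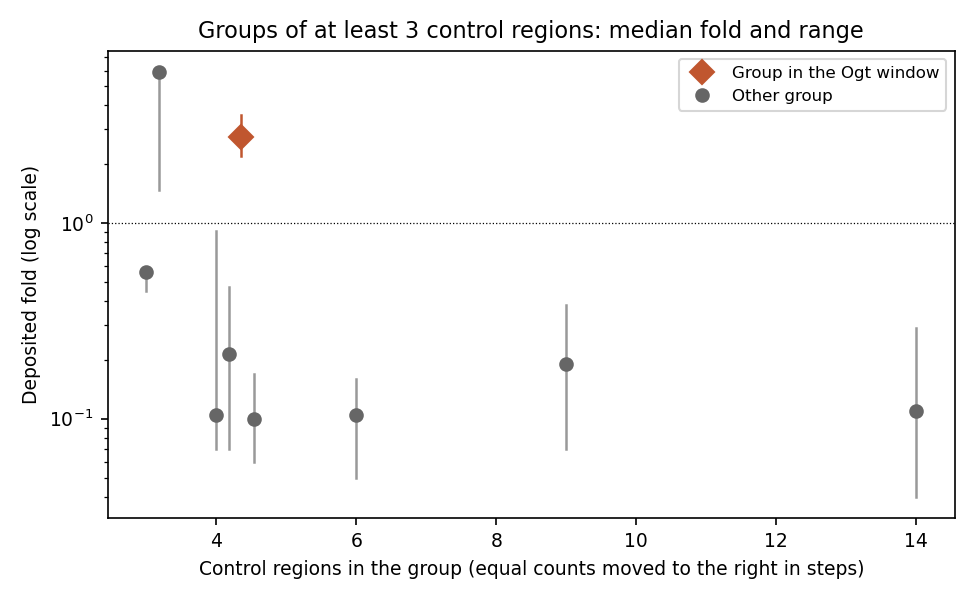
Deposited fold (log scale; marker at the median, line from lowest to highest) of the 9 groups of at least 3 control regions against the number of regions in the group, with groups of equal count moved to the right in steps. The Ogt group (diamond) runs from 2.20 to 3.55, above the dotted line at 1, and 1 other group, of 3 regions, lies wholly above that line.

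The control regions also limit what can be read from the sWGA list at Ogt. With 3 control tags within 1 kb, a peak of the median length of 419 bp would need 143 sWGA tags to be listed, a number that 9 of 33783 peaks reached. With 3 control tags within 10 kb it would need 26 tags, and with none 9. The lack of a second peak among the 4 control regions is therefore by itself no sign that sWGA tags were few there. The fold readings put 2 sWGA tags in each of 3 of these regions, which were 341, 240 and 275 bp long. These readings rest on assumed summit heights, and the 9 tags needed with no control tag are for another length, 419 bp. At the region starting at 98838398 the readings give 8 in 1 kb or 80 in 10 kb. The ground between the regions was not read. At Oga no control region was near enough to limit the list. The nearest control regions lay 8.52 Mb before the window, at 37252380 to 37252635, and 1.30 Mb after it, at 47210135 to 47210563, each with 3 tags. Single control tags that form no region can still limit the list in the Oga window, and the fold of the 12-tag peak points to 1 such tag. With 1 control tag within 10 kb a peak of 419 bp would need 13 tags, and with 1 within 1 kb 60 tags.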

How the data were processed

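Sequential chromatin immunoprecipitation was read from a single end in 1 sWGA and 1 control library (filtered depths 6129874 and 78351 tags). Before filtering the libraries had 16695056 (sWGA) and 366466 (control) tags. Per the file headers, the authors called regions with MACS 1.4.1, using 1e-05 as the p cutoff, a fragment length of 155 bp and local windows of 1 and 10 kb, with the smaller library scaled up to the larger. Per the submitters' processing notes positions are on mm9, and the aligner is not given in the sources used here. By its name the control list, which lacks a header, is the negative list of this MACS run, so each list was called on 1 library against the other.

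Tags were deposited as raw counts for each region. Scores were deposited as −log10 of a p-value, multiplied by 10. Folds were deposited as a ratio of summit height to expectation, and folds of the lists are on different scales. The deposited FDR is a percent. All of these are the authors' values unless said to be scored again or read in whole tags.

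Values were computed with Python 3.11.15, numpy 2.4.6, scipy 1.17.1 and pandas 2.3.3. Scoring again took the upper Poisson tail beyond the tag count of a region, which came within 0.02 of the deposited value for 97.0% of 26367 peaks that had the genome-wide background and were longer than 2 fragment lengths, and for all 4 members. For the Ogt neighbour at 98624794 to 98625158 it gave 92.6, where 82.24 was deposited. Folds were called whole within 0.01 tags. For the control folds all tags of a region of up to 2 fragment lengths were taken to overlap at the summit, and 99.0% of 506 such regions had a whole-tag reading, a share that a random fold could also often reach. The window counts and the scoring were tested on simulated data. The members, windows, motifs and groupings were chosen with earlier results of these data known. Every member was named, with the nearest 2 peaks and the nearest control region on each side. No mm9 genome or annotation was used here, so peak sequences are not shown and other O-GlcNAc pathway genes were not analysed here. Alternatives were a score of at least 100, a fold of at least 10, an FDR of at most 5%, at least 18 tags, overlap in place of summits and windows widened by 100 kb or 1 Mb.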

Additional observations from a re-analysis of the deposited data

How the results depend on the processing

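No paired analysis was possible because there was 1 library on each side, and leaving one out was likewise not possible. Of 32 alternative values 21 stayed within 1.5 times the value reported and 11 did not. The Ogt peak stayed listed under 7 of 9 settings, the list as deposited included. It was lost (0 peaks) with an FDR of at most 5% (its own FDR was 76.3%), and 0 peaks were left at either gene when scored with 1 control tag within 1 kb. The 3 Oga peaks became 1 with a score of at least 100 or with at least 18 tags, and 10 with the window widened by 100 kb. The shares of all peaks with an FDR of at most 5% or at least 18 tags were not counted. The upper quartile was 18 tags on chromosome X and 17 on chromosome 19. Counts left at these limits are no result about the genes. The 4 control regions at Ogt were also 4 with the window widened by 100 kb or 1 Mb, and 2 of them held at least 4 tags. When a peak had to score 100 or more, the nearest before the Ogt window was 188 kb away in place of 102.9 and the nearest after the Oga window 158.5 kb in place of 11.4. Control groups of at least 4 regions with all folds over 1 numbered 0 when joined over up to 20 kb and 2 over up to 100 kb, against 1. The scoring with added control tags, the minimum of 4 control tags, the distances to peaks of a higher score and the control groups were chosen after seeing the data. The control library was shallow, and 3 of its tags made a region.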
